A study of Mus musculus with 18 samples.

Results

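The 9 genes described here are Cd79a, Cd79b, Cd22, Cd72, Cr2, Blnk, Blk, Btk and Bank1, which together build, tune and relay the signal of the B cell antigen receptor. They were taken by name, current or older, from the 21307 named genes of a mouse expression array, and 14 of its 41174 probes carry these names. All 9 had at least 1 probe past the filter on dim signals, and 13 of the 14 probes passed it. Whole blood was taken by cardiac puncture 6 hours after exposure from C57BL/6N mice, an inbred strain; all were males 8 to 12 weeks old. There were 7 sham-treated mice (0 Gy), 5 mice given 2 Gy and 6 mice given 8 Gy of gamma rays from a cesium source, whose isotope the labels and the design text name differently. Each mouse gave 1 array. The RiboPure kit served for RNA purification in 5 of the mice at 0 Gy, 4 at 2 Gy and all 6 at 8 Gy, the PAXgene kit in the remaining 3, and globin RNA was then removed. The labels name no allele or transgene. The study asked which blood transcripts mark exposure to radiation.

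The antigen receptor of a B cell is a membrane immunoglobulin held by a pair of signalling chains, Igα and Igβ, which Cd79a and Cd79b encode. When antigen binds, kinases of the Src family such as Blk phosphorylate these chains, Syk docks on them, and the adaptor Blnk brings Btk and phospholipase Cγ2 together to raise calcium. Coreceptors set the threshold: Cr2 binds complement-coated antigen and makes the receptor more sensitive, whereas Cd22 and Cd72 carry inhibitory motifs that recruit the phosphatase Ptpn6. Most of these genes are read almost solely in the B lineage, and circulating B cells of the mouse are sensitive to radiation. Btk is also used by myeloid cells and platelets.

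The sequences of the probes matter here because a probe of 60 bases stands for a gene. Those of Cd79a, Cr2 and Cd72 are shown, each 5′ to 3′ in lower case, with positions on the mouse build mm7 as the scanner files give them. The Cd79a probe is shown because it set all irradiated mice below all sham-treated mice; it maps to chr7:21688822-21689079 on the plus strand, a span longer than the probe itself.
Cd79a probe: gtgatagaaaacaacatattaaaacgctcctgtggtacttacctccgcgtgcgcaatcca
The pair of Cr2 probes is shown because their log2 fold changes had opposite signs. The one brighter over all 18 arrays, though not at 0 Gy, lies at chr1:194717651-194717710. The other lies at chr1:194695473-194695532. Both are on the minus strand with 22118 bases between them.
Cr2 brighter probe: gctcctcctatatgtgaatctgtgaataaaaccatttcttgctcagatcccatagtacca
Cr2 other probe: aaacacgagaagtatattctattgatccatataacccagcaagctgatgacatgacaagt
The pair of Cd72 probes, at chr4:43464012-43466156 and chr4:43463984-43464037 on the minus strand, is shown because they share 32 bases, in capitals, and so do not measure the gene independently.
Cd72 brighter probe: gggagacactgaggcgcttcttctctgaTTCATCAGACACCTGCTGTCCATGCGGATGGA
Cd72 other probe: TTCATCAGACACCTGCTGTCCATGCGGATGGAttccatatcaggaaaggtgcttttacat

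The scanner's processed signal was taken to log2 and reduced by the 75th percentile of its array, so a value of 0 is the signal of the 75th percentile and each unit is a doubling. Where a gene had several probes, the brightest on average was used. That percentile was 138 to 425 intensity units at 0 Gy, 46.4 to 186 at 2 Gy and 58.4 to 232 at 8 Gy, so irradiated arrays were on the whole dimmer. The scanner software called 19265 to 24448 probes well above background on the 0 Gy arrays, 15456 to 19518 on those at 2 Gy and 16941 to 22782 on those at 8 Gy. There were 8 slides and 7 scan days. A pair of arrays stood apart in these genes: 0 Gy replicate 5 was the lowest of its dose, and 8 Gy replicate 1 the highest of its dose, in 7 of the 7 members that fell. Results that rest on them are given with and without them. The highest correlation between 2 arrays was 0.981 over all probes.

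At 8 Gy, transcripts of 7 of the 9 members fell, none rose, and Btk and Cr2 did not pass the test. The falls ran from 4.79-fold for Cd72 to 14.0-fold for Cd22, and the median log2 fold change of the 9 members was -2.75. With normexp background correction the same 7 passed, with log2 fold changes of -4.06 for Cd79b to -0.99 for Cd79a. In that fit 1136 of the 13674 genes tested fell. With slide or scan day as a fixed block, or array brightness as a covariate, none of the 7 passed (adjusted p = 0.147 to 0.585), nor did any other gene. The model was fitted with limma to all 18 arrays with dose and kit as terms, and p was adjusted over all 13674 genes tested by the Benjamini-Hochberg method, with a threshold of 0.05. Of all genes tested, 4.37% fell at 8 Gy and 7.56% rose, with a median log2 fold change of 0.079. The share of higher calls among all calls was 63.4%, and 45.1% to 45.7% with normexp correction, quantile normalization or the deposited table. At 2 Gy none of the 9 members passed, with log2 fold changes of -3.29 to 0.79. The unadjusted p was under 0.05 for 7 of them, against 2801 of all 13674 genes. By the adjusted p, 0.0293% of all genes fell at 2 Gy. In a bulk sample such as whole blood, fewer B cells and less RNA per B cell cannot be told apart.

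**Figure D1:**
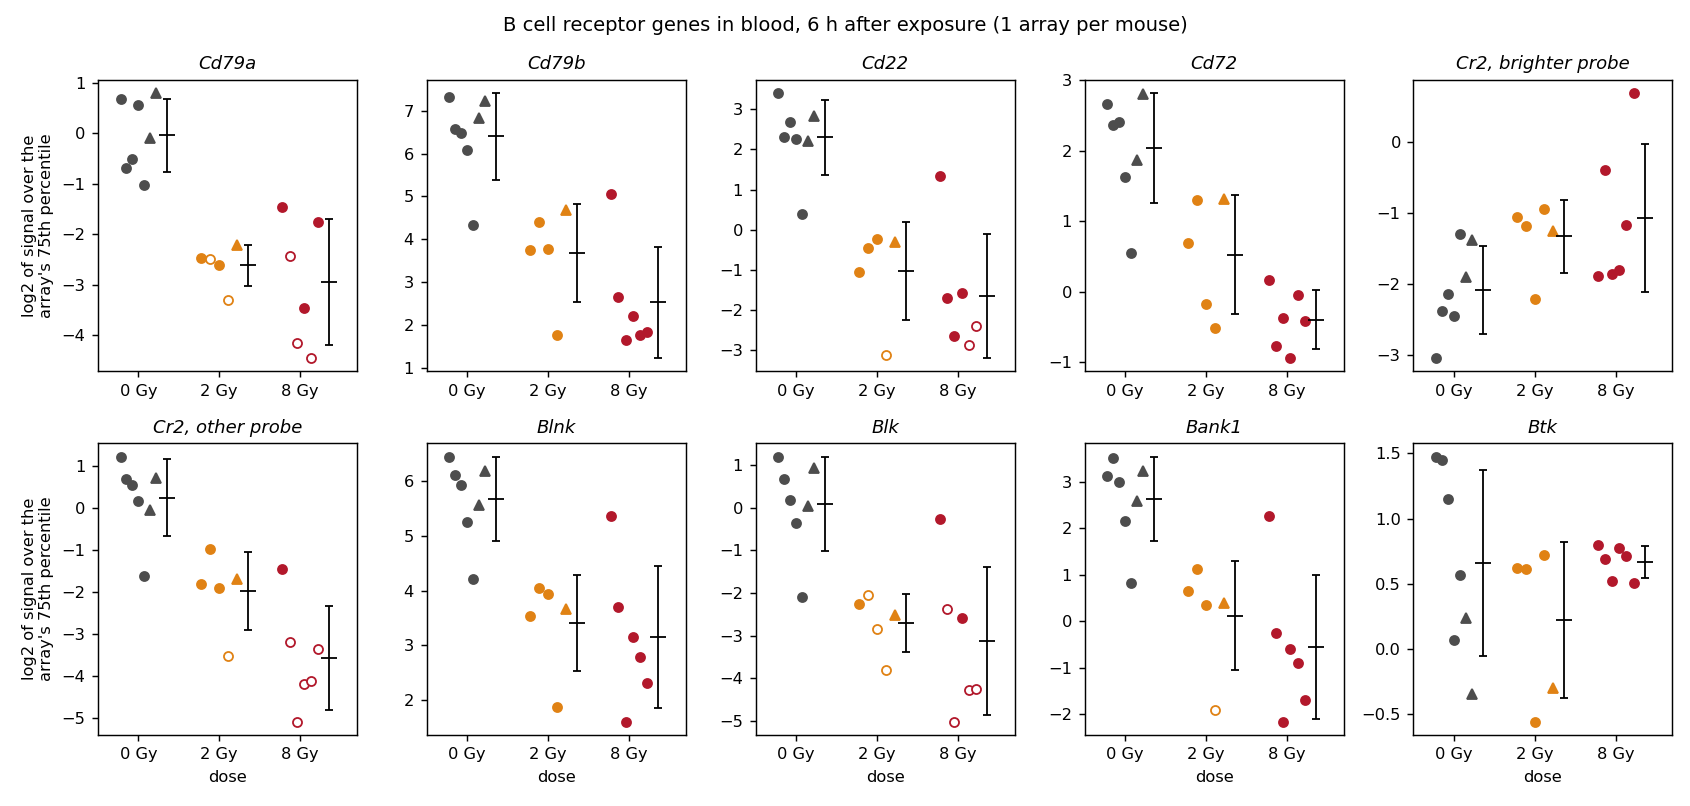
Log2 of the processed signal over the array's 75th percentile for each member, 1 point per mouse, with Cr2 shown by both probes. Circles are RiboPure and triangles PAXgene arrays, open symbols are probes not well above background, and bars are the mean and SD. In the Cd79a panel the 6 arrays at 8 Gy sit between -4.44 and -1.47, below the 0 Gy arrays, whose lowest is -1.03.

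The signalling chains of the receptor fell together. Cd79a, which encodes Igα, had a log2 value of -1.03, -0.09 and 0.79 (lowest, median and highest) in the 7 mice at 0 Gy. At 2 Gy its values were -2.47, -2.48, -2.61, -3.30 and -2.22 in the 5 mice, and at 8 Gy the lowest, median and highest of 6 mice were -4.44, -2.94 and -1.47. All irradiated mice lay below all sham-treated mice. Cd79a averaged -2.95 ± 1.25 at 8 Gy and -0.05 ± 0.73 at 0 Gy (SD, n = 6 and 7), and the fitted log2 fold change was -2.75 ± 0.49 (SE, adjusted p = 0.00851), a 6.73-fold lower level. Its spot was called well above background in 7 of 7 mice at 0 Gy, 3 of 5 at 2 Gy and 3 of 6 at 8 Gy, and the size of the fall rests partly on dim spots. With normexp background correction it was -0.99 on the log2 scale, still past the threshold (adjusted p = 0.0383).

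Cd79b, which encodes Igβ, was well above background on every array (its probe lies at chr11:106420507-106420566, minus strand). Its values were 4.33, 6.57 and 7.31 (lowest, median and highest) at 0 Gy. The 5 mice at 2 Gy had 3.75, 4.39, 3.77, 1.77 and 4.70, and at 8 Gy the lowest, median and highest were 1.65, 2.03 and 5.06. One array at 8 Gy (replicate 1, 5.06) and 2 at 2 Gy (4.39 and 4.70) lay above the lowest array at 0 Gy, replicate 5 at 4.33, and no irradiated array reached the next lowest at 0 Gy. The log2 fold change at 8 Gy was -3.58 ± 0.61 (adjusted p = 0.00851), a 12.0-fold lower level, and at 2 Gy it was -2.64 ± 0.61 (adjusted p = 0.0683). Without 0 Gy replicate 5 the change at 2 Gy was -2.97 with an adjusted p of 0.0121.

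Among the receptors that set the threshold, the inhibitory lectin Cd22 fell. Its main probe, at chr7:27806351-27806410 on the minus strand, read 0.38, 2.31 and 3.41 (lowest, median and highest) at 0 Gy. It read -1.05, -0.47, -0.22, -3.13 and -0.31 in the 5 mice at 2 Gy and -2.89, -2.06 and 1.33 (lowest, median and highest) at 8 Gy. No mouse at 2 Gy reached the lowest sham-treated mouse, while 8 Gy replicate 1 exceeded it. The spot was called well above background in 7 of 7 mice at 0 Gy, 4 of 5 at 2 Gy and 4 of 6 at 8 Gy. The log2 fold change was -3.80 ± 0.69 at 8 Gy (adjusted p = 0.00896; -2.85 with normexp correction) and -3.29 ± 0.69 at 2 Gy (adjusted p = 0.0612). The second Cd22 probe, further upstream, was called well above background in 0 of 11 irradiated mice and 6 of 7 sham-treated mice. Its level was at least 1.59-fold lower at 8 Gy and at least 1.23-fold lower at 2 Gy. The fitted log2 fold changes, which rest on readings not well above background, were -2.04 at 8 Gy (adjusted p = 0.00845 over 22035 probes) and -2.13 at 2 Gy (adjusted p = 0.0329 over probes). These p do not test the bounds. Each bound divides the 0 Gy mean by the detection limit of the irradiated arrays, taken per array as their lowest signal that the software called, or the probe's own where that was higher.

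Cd72, a second inhibitory receptor, had no dim arrays and separated 8 Gy from 0 Gy without overlap. Its values were 0.55, 2.37 and 2.80 (lowest, median and highest) at 0 Gy, 0.69, 1.30, -0.18, -0.52 and 1.32 in the 5 mice at 2 Gy, and -0.94, -0.39 and 0.17 (lowest, median and highest) at 8 Gy. The highest mouse at 8 Gy therefore lay below the lowest sham-treated mouse, but 3 of the mice at 2 Gy did not. The log2 fold change was -2.26 ± 0.38 at 8 Gy (adjusted p = 0.00851) and -1.47 ± 0.38 at 2 Gy (adjusted p = 0.0937). The overlapping Cd72 probe shown above gave -2.46 and -1.78.

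Cr2, the complement receptor CD21, had fold changes of opposite sign by its probes. In the mouse the gene also gives a longer protein, CD35, by alternative splicing. Over all 18 arrays the brighter probe averaged -1.54 and the other -1.64. At 0 Gy alone the order was reversed, with means of -2.08 and 0.26. The irradiated arrays thus decided which probe stood for Cr2. The brighter probe had values of -3.04, -2.14 and -1.29 (lowest, median and highest) at 0 Gy, -1.06, -1.18, -2.22, -0.94 and -1.25 at 2 Gy, and -1.89, -1.49 and 0.69 (lowest, median and highest) at 8 Gy. Its log2 fold change at 8 Gy was 1.14 ± 0.43 and did not pass the test (adjusted p = 0.0807). It passed without 0 Gy replicate 5 (1.34, adjusted p = 0.0383), without 8 Gy replicate 1 (1.30, adjusted p = 0.0460) and with normexp correction (0.93, adjusted p = 0.0364). The other probe, which covers the end of the transcript nearer its 3′ side, had 0.57 as its median at 0 Gy and ran from -1.60 to 1.24. It had -1.79, -0.96, -1.90, -3.51 and -1.69 at 2 Gy, and -5.08, -3.74 and -1.45 (lowest, median and highest) at 8 Gy. The 8 Gy and 0 Gy arrays overlapped through 8 Gy replicate 1 and 0 Gy replicate 5.

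By this other probe Cr2 was 13.5-fold lower at 8 Gy (log2 fold change -3.76 ± 0.58, adjusted p = 0.00825 with the probe put in the brighter one's place), and with it 8 of the 9 members fell. That probe was called well above background in 7 of 7 mice at 0 Gy, 4 of 5 at 2 Gy and 1 of 6 at 8 Gy, and its fall was -1.31 with normexp correction (adjusted p = 0.0197). The other probe showed the pattern of the members that fell, array by array, and the brighter one did not. Putting the other probe in place was chosen after its values were seen, so the change of Cr2 was not settled by these arrays.

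Of the relay inside the cell, the adaptor, the Src kinase and the scaffold fell, and the Tec kinase did not pass the test. Blnk, the adaptor that joins Syk to Btk and phospholipase Cγ2, had 4.21, 5.94 and 6.45 (lowest, median and highest) at 0 Gy. It had 3.54, 4.05, 3.94, 1.88 and 3.66 at 2 Gy and 1.61, 2.96 and 5.36 (lowest, median and highest) at 8 Gy, so every mouse at 2 Gy lay below every sham-treated mouse and 8 Gy replicate 1 did not. The log2 fold change was -2.44 ± 0.56 at 8 Gy (adjusted p = 0.0194) and -2.24 ± 0.56 at 2 Gy (adjusted p = 0.0861). Blk, a Src family kinase of B cells, had -2.10, 0.20 and 1.21 (lowest, median and highest) at 0 Gy. The 5 mice at 2 Gy had -2.27, -2.05, -2.85, -3.81 and -2.52, and at 8 Gy the lowest, median and highest were -5.02, -3.43 and -0.26. One mouse at 2 Gy (-2.05) lay above the lowest sham-treated mouse, replicate 5, and at 8 Gy replicate 1 lay above that mouse and replicate 4 (-0.35). The spot was called well above background in 7 of 7 mice at 0 Gy, 2 of 5 at 2 Gy and 2 of 6 at 8 Gy.

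Blk fell by 3.10 ± 0.71 on the log2 scale at 8 Gy (adjusted p = 0.0192), or by 1.12 with normexp correction (adjusted p = 0.0360), and stood at -2.75 ± 0.71 at 2 Gy (adjusted p = 0.0894). Bank1, a scaffold that binds Src kinases and the inositol trisphosphate receptor, had 0.82, 2.98 and 3.50 (lowest, median and highest) at 0 Gy. It had 0.65, 1.13, 0.34, -1.91 and 0.40 at 2 Gy and -2.16, -0.75 and 2.27 (lowest, median and highest) at 8 Gy. The log2 fold change was -3.08 ± 0.68 at 8 Gy (adjusted p = 0.0170) and -2.47 ± 0.68 at 2 Gy (adjusted p = 0.106). A second Bank1 probe had a log2 fold change of -2.40 at 8 Gy (adjusted p = 0.0134 over probes), which rests on dim spots, since 1 of 6 mice at 8 Gy and 6 of 7 at 0 Gy were called well above background. At 2 Gy, where no array read this probe above background, it was at least 2.28-fold lower. Its fitted log2 fold change there was -2.30 (adjusted p = 0.0662 over probes), and that p does not test the bound. The third Bank1 probe read above background on 0 of the 18 arrays.

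Btk, the Tec family kinase mutated in X-linked agammaglobulinaemia, showed no fall past the test. It was spotted 10 times on each array, and the SD between its spots was 0.024 to 0.180 (median 0.079) on the log2 scale. The mice read 1.48, 1.45, 1.15, 0.07, 0.57, 0.24 and -0.34 at 0 Gy, 0.62, 0.61, -0.56, 0.72 and -0.30 at 2 Gy and 0.79, 0.69, 0.52, 0.77, 0.72 and 0.51 at 8 Gy. The doses overlapped throughout, and the SD between mice was 0.71 at 0 Gy, 0.60 at 2 Gy and 0.12 at 8 Gy, above the highest spot SD at 0 and 2 Gy. The log2 fold change was -0.24 ± 0.27 at 8 Gy (95% interval -0.81 to 0.33, adjusted p = 0.560) and -0.51 ± 0.27 at 2 Gy (-1.08 to 0.05, adjusted p = 0.287). With slide as a fixed block it was -0.82 ± 0.31 at 8 Gy (adjusted p = 0.550) and -0.83 ± 0.23 at 2 Gy (adjusted p = 0.257). The unadjusted limma p was then 0.0210 and 0.00461. It was under 0.05 for 1178 and 1838 of all 13674 genes. With scan day as a fixed block the change was -0.53 at 8 Gy and -0.83 at 2 Gy, neither past the test. With array brightness as a covariate it was -0.16 and -0.44, also not past the test. Between the kits, none of the 9 members passed, against 3.79% of all genes. Btk had the single unadjusted p under 0.05 (PAXgene minus RiboPure -0.87 ± 0.31, adjusted p = 0.121), against 2671 of 13673 genes.

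**Figure D2:**
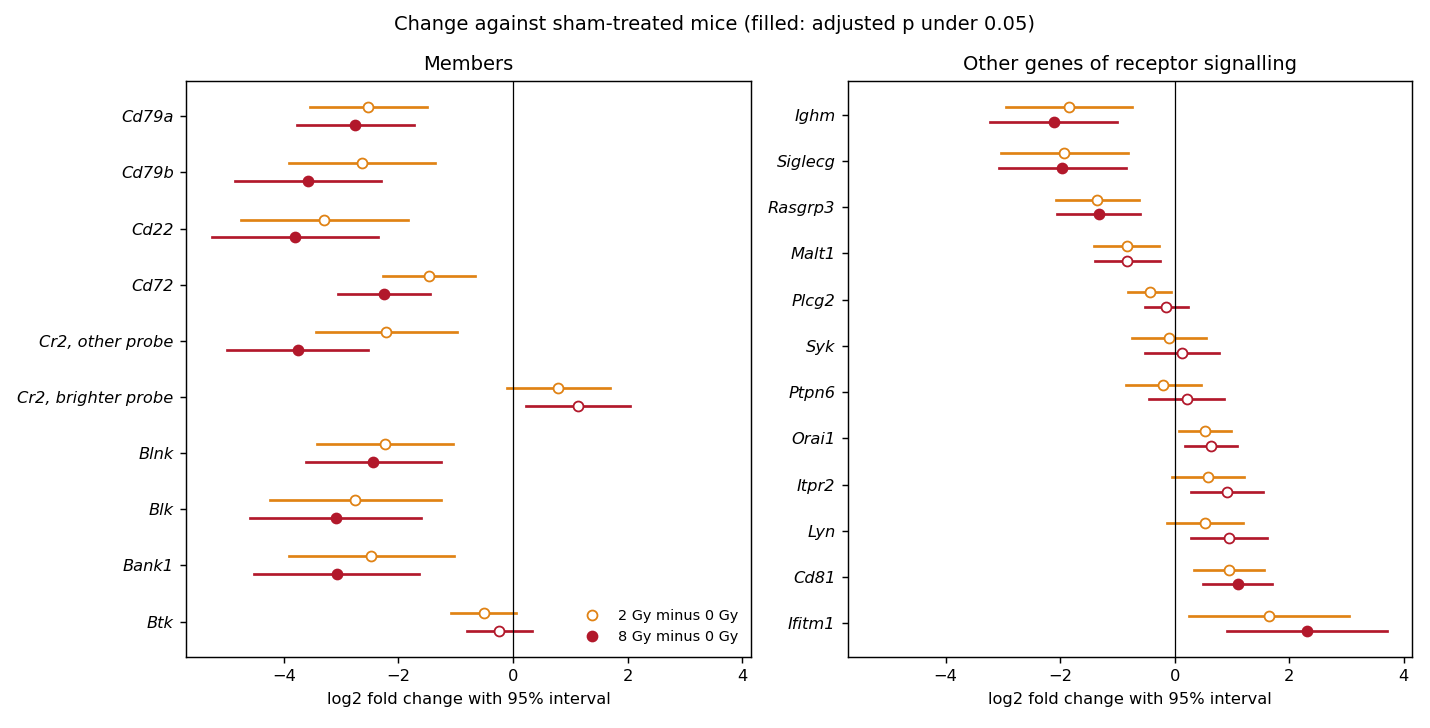
Log2 fold change against 0 Gy with its 95% interval for the 9 members (left, Cr2 by both probes) and 12 other genes of receptor signalling (right), at 2 Gy and 8 Gy. Filled points passed an adjusted p of 0.05, which no point at 2 Gy did. The intervals, which are not adjusted over genes, lie wholly below 0 at both doses for 7 members, and that of Btk spans 0 at both.

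Since array scaling moves all genes of an array together, Btk was also set against the receptor chains within each array. Btk minus Cd79a averaged 3.62 ± 1.24 at 8 Gy and 0.70 ± 1.21 at 0 Gy (SD, n = 6 and 7), a difference of 2.91 (exact 2-sided permutation test, p = 0.00117, adjusted p = 0.00466 over 4 tests). The lowest array at 8 Gy, 2.26, lay above the highest at 0 Gy, 2.14. At 2 Gy the mean was 2.84 ± 0.86 (n = 5), a difference of 2.13 from 0 Gy (exact permutation p = 0.00758, adjusted p = 0.0101). Btk minus Cd79b differed by 3.88 at 8 Gy (exact permutation p = 0.00233, adjusted p = 0.00466) and by 2.29 at 2 Gy (exact permutation p = 0.0152, adjusted p = 0.0152). The p of 0.00117 is the smallest that 6 against 7 arrays can give. With normexp correction the differences for Cd79a were 0.90 and 0.77 and did not pass (exact permutation, adjusted p = 0.139 for both), while those for Cd79b were 4.15 and 2.48 and passed. These tests had no term for kit, slide or scan day, and no 8 Gy array was PAXgene. On the RiboPure arrays alone the differences at 8 Gy were 2.47 for Cd79a and 3.35 for Cd79b (exact permutation, adjusted p = 0.0173 for both). At 2 Gy they were 1.92 and 2.14 (exact permutation, adjusted p = 0.0423 and 0.0476). For Cd79b the change was thus unequal to that of Btk under both corrections, with slide and scan day not taken into account. The difference was smaller without the PAXgene arrays. On slides 1, 2 and 5 Cd79b (-5.38, -2.50 and -2.14, irradiated minus 0 Gy) fell more than Btk (-0.83, -0.83 and -0.54). On slide 4 it fell less (-0.56 against -1.13, 2 Gy minus 0 Gy). For Cd79a, whose spot was dim in 3 of 6 mice at 8 Gy and 2 of 5 at 2 Gy, it depended on the correction.

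**Figure D3:**
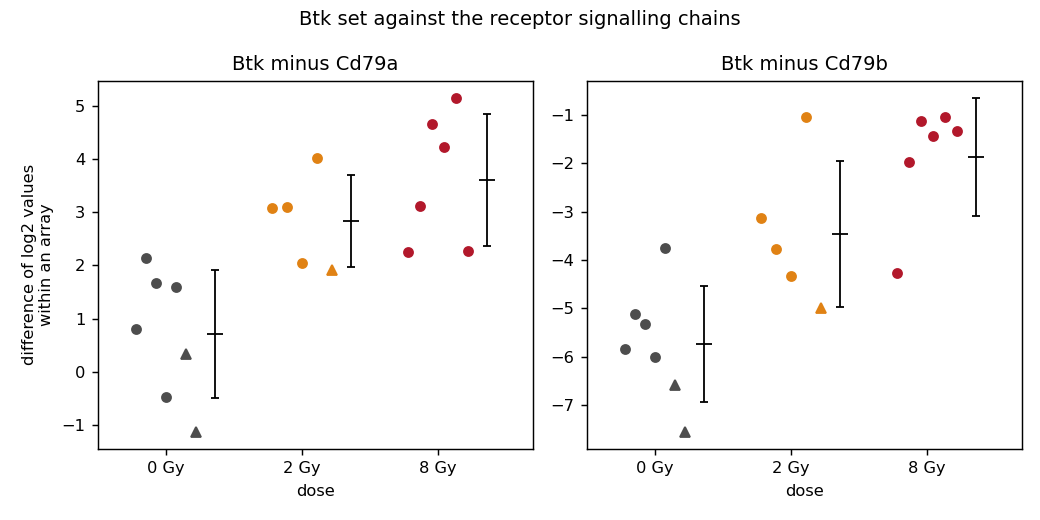
Btk minus Cd79a (left) and Btk minus Cd79b (right), each a difference of log2 values within an array, 1 point per mouse by dose. Circles are RiboPure and triangles PAXgene arrays, and bars are the mean and SD. For Cd79a every 8 Gy array lies above every 0 Gy array, and for Cd79b 8 Gy replicate 1 overlaps the 0 Gy range.

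Between the irradiated groups the members showed no difference past the test. In all 7 fallen members the mean at 2 Gy lay between those at 8 Gy and 0 Gy. The fitted differences of 8 Gy minus 2 Gy ran from -0.94 ± 0.64 for Cd79b (95% interval -2.29 to 0.40) to -0.20 ± 0.59 for Blnk (-1.45 to 1.04). By limma none of the 9 members passed and none had an unadjusted p under 0.05, against 0% of all genes called, of which 423 had an unadjusted p under 0.05. The other Cr2 probe had the largest gap, -1.55 ± 0.61, with an unadjusted p of 0.0222 and an adjusted p of 0.931. The intervals are wide enough to hold both no difference and a further drop of over 1 on the log2 scale for Cd79b, Cd22, Cd72, Blnk, Blk, Bank1 and Cd79a.

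**Figure D4:**
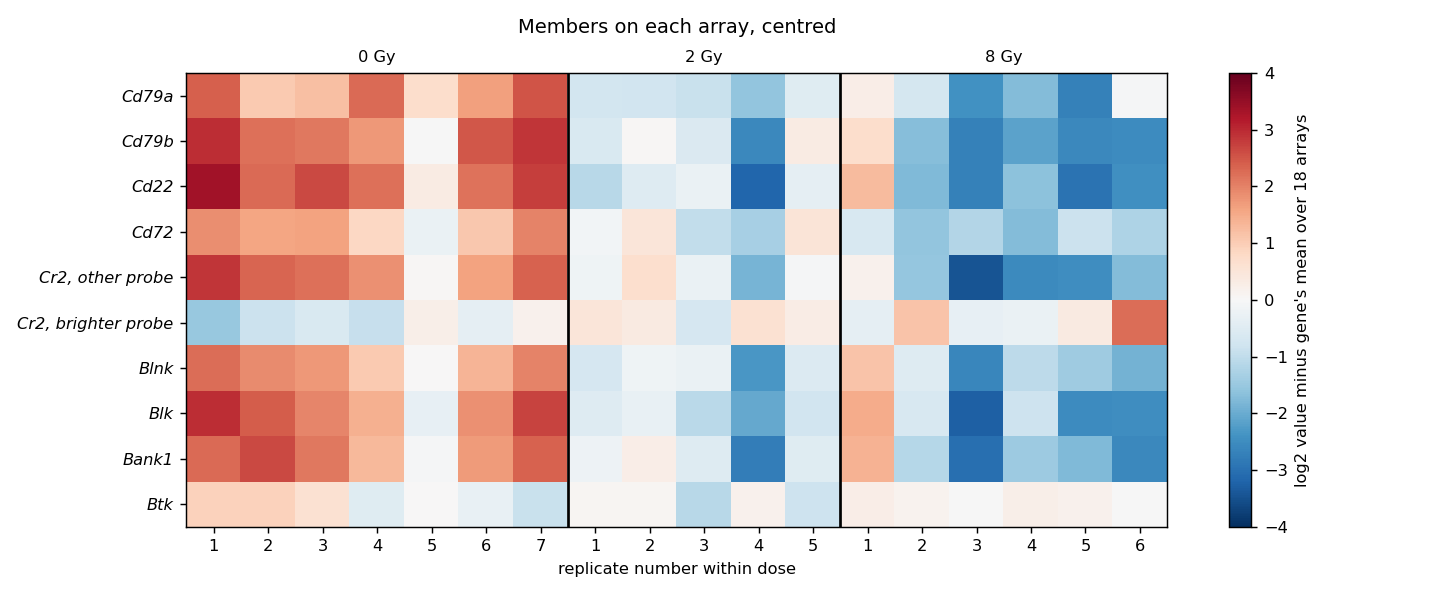
Each member's log2 value minus its own mean over the 18 arrays, for every mouse, arranged by dose and replicate number. The 0 Gy columns are high in 8 of the 10 rows apart from replicate 5, the 8 Gy columns are low on the whole apart from replicate 1, and the rows of Btk and of the brighter Cr2 probe do not follow.

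Single mice differed in all the fallen members at once. At 0 Gy replicate 5 Cd22 read 0.38 and Bank1 0.82, against medians of 2.31 and 2.98 for the dose. Replicate 4 at 2 Gy was low, with Cd79b at 1.77 and Cd22 at -3.13. At 8 Gy replicate 1 Cd22 read 1.33 and Bank1 2.27, against medians of -2.06 and -0.75. Summed neutrophil marker levels, on the linear scale of the 75th percentile, moved the other way. They were 2797 at 0 Gy replicate 5 against 529 to 1106 in the other sham-treated mice, 5762 at 2 Gy replicate 4, the highest of the 18 arrays, and 1728 at 8 Gy replicate 1 against 2945 to 4315 in the other mice at 8 Gy. Summed platelet marker levels did so too. They were 4248 at 0 Gy replicate 5 (1066 to 2395 in the other sham-treated mice) and 5762 at 2 Gy replicate 4, again the highest. At 8 Gy replicate 1 the platelet sum was 2509, against 4023 to 5240 in the other mice of the dose. The NK cell, monocyte and erythroid sums of 0 Gy replicate 5 (121, 1423 and 6947) were also the highest of its dose, and its T cell sum (129) was not. The part that cell makeup played in the members' values was not tested.

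Leaving out 0 Gy replicate 5 or 8 Gy replicate 1 widened the separation of the fallen members from 0 Gy, and the choice to leave out both was made after seeing the values. Leaving out 2 Gy replicate 4 narrowed it at 2 Gy, where the 7 log2 fold changes were then -2.80 to -1.24 (adjusted p = 0.211 to 0.295), against -3.29 to -1.47 over all arrays. Over all arrays, every 8 Gy array lay below every 0 Gy array for 2 members, Cd79a and Cd72, against 0.826% of all genes. Every 2 Gy array lay below every 0 Gy array for 3 members, Cd79a, Cd22 and Blnk, against 0.973% of all genes. Without 0 Gy replicate 5 these counts were 4 members at 8 Gy (2.99% of genes) and 7 at 2 Gy (2.69%). Without 8 Gy replicate 1 as well, 7 members were apart at 8 Gy (7.58% of genes). In the fit without 0 Gy replicate 5, 7 members fell and Cr2 by its brighter probe rose at 8 Gy (7.31% and 15.3% of all genes).

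At 2 Gy the call on the members hung on single arrays. Without 0 Gy replicate 5 the same fit called 7 of 9 members lower at 2 Gy (2.92% of genes), and without 8 Gy replicate 1, which enters through the shared error, it called 6 (0.834% of genes). Without 2 Gy replicate 3 it called 2, Cd79a and Cd22, both barely under the threshold (0.3% of genes). Without both 0 Gy replicate 5 and 8 Gy replicate 1, 7 members fell at 8 Gy against 10.2% of all genes, with log2 fold changes as low as -4.79 for Cd22. Counted by probes rather than genes, 11 of 13 member probes fell at 8 Gy (4.01% of 22035 probes) and 1 of 13 at 2 Gy (0.0499%). The probe that fell at 2 Gy was the second one of Cd22, called well above background on 0 of the 5 arrays at that dose.

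The slide and the scan day were taken as batches. On slide 1, which held 2 arrays at 8 Gy and 1 at 0 Gy, the log2 difference of 8 Gy minus 0 Gy was -5.52 to -3.31 over the 7 fallen members. On slides 2, 4 and 5 the differences of 2 Gy minus 0 Gy were -3.07 to -1.38, -1.59 to -0.27 and -2.58 to -0.56, below 0 for all 7 members on each. On scan day 4 the difference of the single 8 Gy array minus the single 0 Gy array, replicate 5, was -2.79 to -0.74, and that of 8 Gy minus 2 Gy was -2.18 to 0.85, below 0 for 6 of the 7. Slide 7 alone set 8 Gy against 2 Gy, and its 3 arrays at 8 Gy read 0.31 to 2.27 above its 1 array at 2 Gy, replicate 4, in all 7 members. With slide, or in a separate fit scan day, as a fixed block, none of the members passed at 8 Gy: the 7 log2 fold changes were -3.21 to -2.08 (adjusted p = 0.457 to 0.585) and -3.45 to -1.87 (adjusted p = 0.243 to 0.247). Under these blocks 5 and 7 of the 7 had an unadjusted p under 0.05, against 1178 and 2533 of all 13674 genes. No gene on the array passed. With the slide as a random block all 7 passed, against 298 of 13674 genes lower.

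Array brightness moved with the dose, and with it as a covariate none of the members passed at 8 Gy (log2 fold changes -2.91 to -1.85, adjusted p = 0.147 to 0.239), nor did any other gene. On the RiboPure arrays alone 5 members passed, with Blnk and Blk at an adjusted p of 0.0516 each. In that fit 137 of 13674 genes fell. Without 0 Gy replicate 1, and likewise without replicate 2, Blnk and Blk were again the members that missed the threshold (adjusted p up to 0.0585 without replicate 1 and 0.0519 without replicate 2). Among all genes, 112 fell without replicate 1 and 136 without replicate 2.

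Other genes of receptor signalling were called about as often as genes at large. Of a list of 44, 40 were measured, and at 8 Gy 3 fell, 2 rose and 35 did not pass, with a median log2 fold change of 0.23, against 4.37% of all genes lower and 7.56% higher. At 2 Gy none of the 40 passed. Those that fell were the μ heavy chain Ighm (-2.11 ± 0.52, adjusted p = 0.0249), the inhibitory lectin Siglecg (-1.96 ± 0.53, adjusted p = 0.0321) and the Ras exchange factor Rasgrp3 (-1.33 ± 0.34, adjusted p = 0.0282).

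The 2 that rose encode membrane proteins that are used by B cells and widely expressed elsewhere. The tetraspanin Cd81 had 7.78 ± 0.53 at 8 Gy and 6.67 ± 0.40 at 0 Gy (SD, n = 6 and 7; log2 fold change 1.10 ± 0.29, adjusted p = 0.0292). The interferon-induced Ifitm1 had 5.54 ± 0.91 and 3.00 ± 1.34 (2.31 ± 0.66, adjusted p = 0.0392). Without 0 Gy replicate 5, 4 of the 40 fell and 6 rose, against 7.31% and 15.3% of all genes.

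The enzymes around the receptor that other blood cells share did not pass. Syk, the kinase that docks on the chains, changed by 0.13 ± 0.31 (adjusted p = 0.804), phospholipase Cγ2 (Plcg2) by -0.15 ± 0.18 (adjusted p = 0.597) and the phosphatase Ptpn6 by 0.21 ± 0.31 (adjusted p = 0.676). Lyn, the Src kinase that myeloid cells share, was at 0.94 ± 0.32 (adjusted p = 0.0576). The remaining genes with the smallest p were the calcium channels Itpr2 (0.91 ± 0.30, adjusted p = 0.0526) and Orai1 (0.64 ± 0.22, adjusted p = 0.0600) and the NF-κB pathway protease Malt1 (-0.83 ± 0.27, adjusted p = 0.0541). Whether their changes differ from those of the members was not tested.

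Markers of blood cells were set beside the members. Of 13 other B cell markers measured, 12 fell at 8 Gy, with a median log2 fold change of -3.23. Their summed level was 8.83 to 119 at 8 Gy and 53.3 to 328 at 0 Gy. Of 15 T cell markers 1 fell (median -0.12; summed level 57.9 to 94.7 at 8 Gy and 80.6 to 195 at 0 Gy), and none of 8 NK cell, 9 monocyte or 6 plasma cell markers passed. Of 14 neutrophil markers 13 rose (median 2.35; summed level 1728 to 4315 at 8 Gy and 529 to 2797 at 0 Gy), as did 3 of 9 platelet and 2 of 8 erythroid markers. Without 0 Gy replicate 5, 9 of 9 platelet, 3 of 8 erythroid, 2 of 8 NK cell and 2 of 9 monocyte markers rose, and 1 plasma cell marker rose and 1 fell. Of all genes, 4.37% fell and 7.56% rose over all arrays, and 7.31% fell and 15.3% rose without 0 Gy replicate 5. Ighd, Klra4, Ly6c2, Tnfrsf17, Ahsp and Hbb-b1 had no probe past the filter. The part of these shifts in the members' falls was not tested.

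Over the 18 arrays, the genes outside the set whose pattern came closest to the mean pattern of the members other than Btk were sought among 13657 genes. Closeness was the root mean square difference of the centred log2 values, whose median over all genes was 1.57. Among the nearest were H2-DMb2 (0.28), Ighm (0.30), H2-Aa (0.34), LOC674005 (0.34), Iglv1 (0.36), Cpm (0.37) and Igkv4-55 (0.38). H2-DMb2 and H2-Aa belong to antigen presentation on MHC class II, and Iglv1 and Igkv4-55 are immunoglobulin light chain V genes. Blnk itself lay at 0.31, Bank1 at 0.53, Cd79a at 0.58 and Cd22, the farthest of the 7 that fell, at 0.80. Btk lay at 1.45 and Cr2 by its brighter probe at 1.99. A gene with the same value on every array would lie at 1.41, the root mean square of the pattern itself. Every member but Btk was part of the mean it was set against, so the distances of Btk and the others are not alike. The pattern included the brighter Cr2 probe, and with Cr2 left out 1 of these 7 genes, Iglv1, stayed among the nearest 8. All of these values share the same arrays and scaling and are a description.

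Promoters of the members were read for motifs of factors that work in B cells, since 7 members moved together. RefSeq windows on GRCm38.p6 were at hand for 7 members (Cd79a, Cd22, Cd72, Cr2, Blnk, Btk and Bank1), and the 250 bases before the annotated start were searched on both strands. The motifs were the octamer ATGCAAAT, an Ebf-type core CCCNNGGG, the E-box CAGGTG and the Ets-type AGGAAGT. In 32851 such windows of mouse genes these stood in 1.60%, 11.8%, 17.2% and 7.69%. Among the 7 members the octamer stood in 1 (Blnk), the Ebf-type core in 2 (Cd22 and Bank1), the E-box in 5 (Cd79a, Cd22, Cr2, Blnk and Bank1) and the Ets-type motif in 3 (Cd79a, Cd72 and Blnk). Btk held none. These are matches of letters and not sites shown to be bound.

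The promoters of Cd79a, Blnk and Btk are shown with their matches in capitals, each read along the gene's own strand: the first pair as members that fell, and Btk as the one with no match. They lie at chr7:24897247-24897496 (plus strand), chr19:40994222-40994471 (minus) and chrX:134583141-134583390 (minus). In Cd79a the E-box begins 154 and the Ets-type motif 55 bases before the start. In Blnk the Ets-type motif begins 202, the E-box 160 and the octamer, as ATTTGCAT, 130 bases before the start.
Cd79a promoter: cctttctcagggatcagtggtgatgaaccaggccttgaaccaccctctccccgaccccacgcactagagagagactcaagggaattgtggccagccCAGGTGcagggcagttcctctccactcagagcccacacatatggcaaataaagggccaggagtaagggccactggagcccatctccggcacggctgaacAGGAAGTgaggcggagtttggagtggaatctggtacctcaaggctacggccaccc
Blnk promoter: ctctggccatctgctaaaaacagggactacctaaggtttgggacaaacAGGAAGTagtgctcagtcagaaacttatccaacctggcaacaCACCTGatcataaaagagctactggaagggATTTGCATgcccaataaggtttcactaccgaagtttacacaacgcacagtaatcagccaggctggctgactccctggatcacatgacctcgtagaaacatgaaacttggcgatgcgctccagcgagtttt
Btk promoter: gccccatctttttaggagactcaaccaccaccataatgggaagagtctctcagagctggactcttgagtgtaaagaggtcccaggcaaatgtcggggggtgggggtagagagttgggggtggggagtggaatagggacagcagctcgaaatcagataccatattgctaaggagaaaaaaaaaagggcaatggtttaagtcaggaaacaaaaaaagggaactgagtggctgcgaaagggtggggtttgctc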

How the data were processed

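Per the file headers, the authors scanned the arrays and computed a background-subtracted intensity (the processed signal) in Agilent Feature Extraction, version 9.5.3.1. The deposited value table gives linear intensity with nearly equal distributions over the arrays, a normalization whose steps are not given in the sources used here, and served as an alternative. Here log2 intensity was averaged per probe and set relative to the 75th percentile of its array. A probe had to be called well above background in 5 or more of 18 mice (22035 probes), and the brightest stood for its gene (13674 genes). Names were updated with RefSeq accessions and symbols. Dose and kit were fitted with limma 3.58.1 in R 4.3.3, with Benjamini-Hochberg adjustment. Errors beside log2 fold changes are standard errors. Exact permutation tests used scipy 1.17.1. The fit was tested on simulated data. The number of arrays limits the precision, and p-values measure the spread between these mice. The members, the gene lists and the rule for naming genes (all members, 5 fixed and 7 further pathway genes, genes among the 8 nearest patterns) were chosen with earlier results of these data known. Other normalizations, filters, batch terms and left-out arrays were tried as alternatives. Replicate numbers were given per mouse and mark no pairing. Results for some genes are not reported here.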

Additional observations from a re-analysis of the deposited data

Results flagged for a closer look

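Of 75 groups of values tested, from the member probes and the named pathway genes, 12 held a mouse set apart from the rest of its dose by a gap that was large for the range; about 1 in 20 would be set apart by chance. Replicate 5 at 0 Gy was low for Cd79b (4.33), Cd22 (0.38) and Siglecg (-0.010). Replicate 3 at 2 Gy was low for the brighter Cr2 probe (-2.22) and for Lyn (4.72). Replicate 4 at 2 Gy was low for Cd22 (-3.13), Blnk (1.88), Bank1 (-1.91) and Ighm (4.78). At 8 Gy replicate 1 was high for Cd79b (5.06), Cd22 (1.33) and the second Bank1 probe (-1.93). All are log2 values over the array's 75th percentile.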

How the results depend on the processing

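At 8 Gy against 0 Gy, 7 members passed; 0 passed with slide or scan day as a fixed block or array brightness as a covariate, 7 with slide as a random block, and 5 to 8 with single arrays left out. At 2 Gy against 0 Gy, where none passed, 4 passed with normexp, 2 with quantile normalization, 1 with the mean of a gene's probes, 3 with the replicate block, 1 with the 2 doses fitted alone, and 0 to 7 with single arrays left out (7 without both arrays that stood apart, an alternative chosen after seeing the data, as was the exchange of the Cr2 probe). Of all 13674 genes, 49 were lower at 2 Gy with normexp, 26 with quantile normalization and 6 with the mean of a gene's probes. With the replicate block 45 were lower, with the 2 doses fitted alone 2, and without both arrays that stood apart 519. At 8 Gy against 2 Gy no alternative passed a member. The difference of Btk minus Cd79a did not pass with normexp (0.90 at 8 Gy, 0.77 at 2 Gy); with single arrays left out the differences were 2.60 to 3.18 and 1.83 to 2.37 for Cd79a and 3.58 to 4.36 and 1.69 to 2.67 for Cd79b. Signs turned in log2 fold changes that had not passed. With the mean of its probes Cr2 was -1.31 (8 Gy against 0 Gy), -0.71 (2 Gy against 0 Gy) and -0.60 (8 Gy against 2 Gy), by construction since its probes disagree; Btk was 0.0092 at 8 Gy without the kit term. For 8 Gy against 2 Gy, normexp gave 0.19 for Cd79a and 0.16 for Blk; the slide block 0.30 for Blnk and 0.36 for Bank1; the scan day block 0.022 for Blnk; and the replicate block 0.036 for Cd22, -0.27 for Cr2, 0.19 for Blnk and 0.22 for Blk. Arrays left out, singly or both that stood apart, gave for that comparison -0.55 to 0.073 for Cd79a, -0.0068 to 0.54 for Cr2, -0.69 to 0.11 for Blnk and -0.98 to 0.034 for Blk. The cause of these shifts was not tested.

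Replicate numbers share a count and no pairing: same-numbered arrays correlated with r of -0.34 to 0.48 over genes, with 8 of 16 pairs over 0.1, and 2 arrays correlated best with their own number. With the replicate block 247 genes passed at 8 Gy against 1632 without it. That count was 278 to 3096 with single arrays left out, 295 on RiboPure arrays alone, 627 with the slide as a random block, 821 with the 2 doses fitted alone and 579 without the filter on dim probes. At 2 Gy it was 9, and 0 to 964 with single arrays left out. Quantile normalization shifted the median log2 fold change of all genes at 8 Gy by -0.10, to -0.02, and 45.7% of its calls were higher, against 63.4% with the 75th percentile.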
